A study of Drosophila melanogaster with 3 samples.

Results

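Promoter-flanking summits are the points of highest ChIP signal that lie near a gene's start but outside its core promoter. They were taken from the authors' list of reproducible peaks for the dm6 build of the Drosophila melanogaster genome, called the optimal list below. A summit counted as flanking when it lay more than 500 and at most 2000 bp from the nearest transcription start site (TSS) of a protein coding gene, on either side. By this rule 1634 of 8340 summits (19.6%) were flanking. Another 4120 summits lay within 500 bp of a TSS and are called promoter summits, and 2586 lay farther than 2000 bp and are called distal summits.

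The study profiled CG2120, a predicted C2H2 zinc finger protein, by chromatin immunoprecipitation and sequencing (ChIP-seq). Its 1 group holds 3 biological replicates of embryos at 18 to 24 h of age from a transgenic line that stably expresses CG2120 with enhanced GFP at its C terminus. An antibody against GFP pulled down the fusion protein from sonicated chromatin of 200 to 800 bp. All replicates carry the same transgene and come from whole organisms, so a summit can stem from any tissue, and no untagged line or second stage is analysed here. The values below therefore compare the flanking summits with promoter and distal summits of the same libraries, and each value of the optimal list is given beside those of the replicates. For a replicate, the 8340 peaks with the highest signal were used, as many as the optimal list holds. The files give peaks and no read counts, so depth is unknown, and intervals on shares cover counting error only.

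The DNA around a fly gene's core promoter holds enhancers and silencers, alternative start sites and the start of the first intron, which in long developmental genes is a frequent home of regulatory elements. C2H2 zinc finger proteins contact DNA through an array of fingers, each reading a few neighbouring bases. ChIP maps where a protein is found on chromatin, directly bound or held there by partners, and does not by itself show that a nearby gene is controlled.

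Flanking summits were AT-rich on average, and the sequences of 10 strong ones show what such windows look like. They are 10 of the 12 strongest flanking peaks found in every replicate, and the windows of the other two, at Adf1 and HmgZ, are not printed here and had GC contents of 33.7% and 46.5%. Each sequence is 101 bases of the dm6 plus strand, read 5' to 3' from the release 6 assembly of RefSeq and centred on the summit. Capitals mark runs of at least 6 bases made of A and T alone. The windows lie at chr2L:481031-481131 for cbt, chr2L:6612663-6612763 for CG11050, chr3R:11760998-11761098 for Lk6, chr2L:3302135-3302235 for CG9663 and chrX:4910328-4910428 for CG32772. Those of the other genes lie at chr3L:14759453-14759553 for Trl, chr3R:8811632-8811732 for CG9837, chrX:5918850-5918950 for CG3726, chrX:4324933-4325033 for norpA and chr2L:16351227-16351327 for chif.
cbt: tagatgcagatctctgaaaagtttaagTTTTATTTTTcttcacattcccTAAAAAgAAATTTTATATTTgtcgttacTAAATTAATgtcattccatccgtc
CG11050: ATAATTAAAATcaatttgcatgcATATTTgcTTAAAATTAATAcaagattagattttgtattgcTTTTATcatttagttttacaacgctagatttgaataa
Lk6: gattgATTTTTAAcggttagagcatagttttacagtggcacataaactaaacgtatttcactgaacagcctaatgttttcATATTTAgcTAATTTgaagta
CG9663: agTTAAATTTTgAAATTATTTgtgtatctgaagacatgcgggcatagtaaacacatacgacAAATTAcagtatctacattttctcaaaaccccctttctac
CG32772: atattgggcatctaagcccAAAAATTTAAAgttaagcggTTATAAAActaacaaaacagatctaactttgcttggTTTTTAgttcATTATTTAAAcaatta
Trl: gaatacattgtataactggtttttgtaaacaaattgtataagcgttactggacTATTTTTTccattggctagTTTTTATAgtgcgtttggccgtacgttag
CG9837: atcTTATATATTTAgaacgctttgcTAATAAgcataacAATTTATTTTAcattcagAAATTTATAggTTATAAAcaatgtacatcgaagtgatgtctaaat
CG3726: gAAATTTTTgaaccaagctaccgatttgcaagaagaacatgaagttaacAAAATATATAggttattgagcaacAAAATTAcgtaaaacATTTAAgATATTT
norpA: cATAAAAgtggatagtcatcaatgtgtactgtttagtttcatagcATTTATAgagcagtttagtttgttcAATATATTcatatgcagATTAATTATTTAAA
chif: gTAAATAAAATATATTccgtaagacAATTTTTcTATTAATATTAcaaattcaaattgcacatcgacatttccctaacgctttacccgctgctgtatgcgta
GC content in the 10 printed windows ran from 20.8% at CG11050 to 33.7% at Trl, so all were lower than the window of HmgZ. The longest unbroken run of A and T was 15 bases, at chif, and the Trl and Lk6 windows had no run over 8 bases. All 10 summits lay in introns of protein coding genes, and the window of cbt lay in an intron of ush, its neighbour.

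These 10 peaks ranked high in each replicate. The cbt peak was ranked 1 in all 3 replicates and in the optimal list, where its signal was 9422. It lay 1393 bp upstream of cbt, a gene for a zinc finger transcription factor, inside ush, a gene for a GATA cofactor. The CG11050 peak ranked 3, 3 and 4 in replicates 1, 2 and 3, and the peak at Lk6, which encodes a kinase of the translation factor eIF4E, ranked 7, 8 and 9. The CG9663 peak ranked 14, 16 and 15, the CG32772 peak 20, 18 and 23, and the peak at Trl, which encodes the GAGA factor, 23, 22 and 26. Signal is not scaled between the replicate lists, so ranks are given in place of values.

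Flanking summits were less dense along the genome than promoter summits and denser than distal summits. Sequence at 500 to 2000 bp from a TSS made up 28.9 Mb, or 21.6% of the genome, and held 56.6 flanking summits per Mb in the optimal list and 57.3 ± 1.46 per Mb in the replicates (SD, n = 3). The promoter zone held 268 ± 4.80 and the distal zone 28.8 ± 0.442 summits per Mb (SD, n = 3 each). The flanking share of all summits was 20.1%, 19.3% and 20.2% in replicates 1, 2 and 3, close to the 21.6% of the genome that this zone fills. All 3 replicates had the same order of the zones, with no overlap.

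Flanking summits lay at a median of 1049 bp from the TSS, with quartiles of 727 and 1464 bp. Their density was highest on the upstream side next to the promoter. Between 500 and 1000 bp upstream it was 79.8 per Mb (replicates 81.3 ± 3.86, SD, n = 3), and it was 118 per Mb in the 100 bp nearest to the promoter limit. From 1000 to 1500 bp upstream it was 54.3 per Mb (replicates 54.2 ± 0.904), and from 1500 to 2000 bp 54.5 per Mb (53.8 ± 2.62). Downstream the 3 distance ranges held 55.0, 52.2 and 44.9 per Mb (replicates 56.5 ± 0.812, 52.8 ± 1.46 and 45.1 ± 1.10). Upstream density was thus higher next to the promoter than beyond 1000 bp, where it was level. Downstream it had no such shoulder, and single steps of 100 bp ranged widely, with 57.0 per Mb between 600 and 700 bp and 29.2 per Mb between 1700 and 1800 bp.

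**Figure D1:**
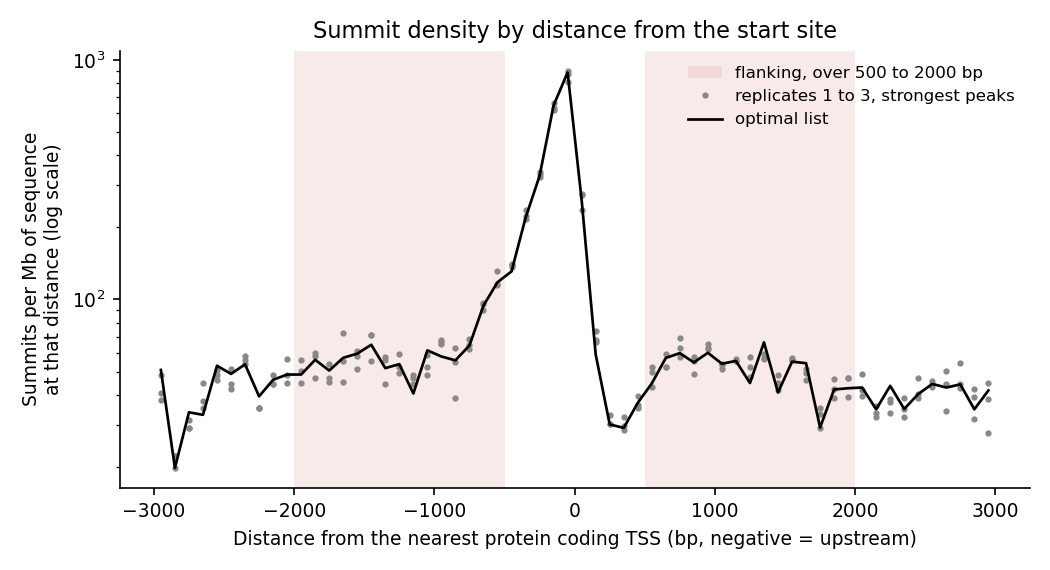
Density of optimal summits (line) and of the strongest peaks of replicates 1 to 3 (points) in 100 bp steps of distance from the nearest protein coding TSS (horizontal axis, bp, negative upstream), in summits per Mb of sequence at that distance (vertical axis, log scale). Shading marks the flanking range, where the line runs mostly near 50 per Mb apart from the shoulder at 500 to 700 bp upstream, against a maximum of 886 per Mb just upstream of the TSS.

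Flanking summits lay on both sides of the TSS. Of 1634, 723 (44.2%, exact 95% interval 41.8 to 46.7) lay upstream and 911 (55.8%) downstream, and upstream sequence made up 38.5% of the flanking zone. In the replicates the upstream share was 44.0% ± 0.776 of flanking, 81.5% ± 0.631 of promoter and 37.2% ± 0.181 of distal summits (SD, n = 3). The difference of flanking minus promoter summits was -37.5 ± 0.406 points and that of flanking minus distal summits 6.75 ± 0.944 points (SD, n = 3). Each of 20 such differences was taken within each replicate and tested by an exact two-sided sign-flip permutation test over the 3 replicates. The smallest p this test allows is 0.25, so no difference can be called by it, and all 20 had the same sign in 3 of 3 replicates (adjusted exact permutation p = 0.25 for each). The labels call the samples biological replicates without saying how the embryos were collected, so this p measures only the spread between these 3 samples.

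Members next to the limits of the rule were set beside their neighbours across them. The 109 summits at 500 to 550 bp had a median signal of 264 and 65.1% were upstream, and the 89 promoter summits at 450 to 500 bp had 251 and 66.3%. The 33 flanking summits at 1950 to 2000 bp had a median signal of 238 and the 31 distal summits at 2000 to 2050 bp had 217. At the lower limit, 72.5% inside and 67.4% outside were among the strongest peaks of all 3 replicates. At the upper limit these shares were 78.8% and 67.7%. The groups are small and their spread between replicates was not measured, so likeness across the limits was not tested. A few peaks hold more than 1 summit, and 44 flanking summits shared their peak interval with another summit, 5 of them with a promoter summit.

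Flanking summits were mostly intronic and almost absent from coding exons. Introns of protein coding genes held 1175 of them (71.9%, exact 95% interval 69.7 to 74.1), although introns made up 35.9% of the zone. Coding exons made up 33.1% of the zone and held 13 summits (0.796%, exact 95% interval 0.424 to 1.36). Sequence outside protein coding genes, called intergenic here, held 369 summits (22.6%) in 20.8% of the zone. The 5' untranslated regions held 39 summits and the 3' untranslated regions 38.

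Per Mb, flanking introns held 115 ± 2.84 summits, flanking intergenic sequence 60.4 ± 2.18 and flanking coding exons 1.40 ± 0.263 (SD over replicates, n = 3). Promoter summits had the opposite order of the first 2 features, with 241 ± 1.87 per Mb in introns and 618 ± 9.69 per Mb in intergenic sequence. Distal summits had 40.8 ± 0.625 and 23.6 ± 0.576 per Mb, the same order as flanking summits. The intronic share was higher in flanking than in promoter summits by 49.3, 51.0 and 50.4 points in replicates 1, 2 and 3, and higher than in distal summits by 3.91, 6.24 and 6.09 points. Both differences were larger than their SD between replicates, 0.857 and 1.31 points.

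**Figure D2:**
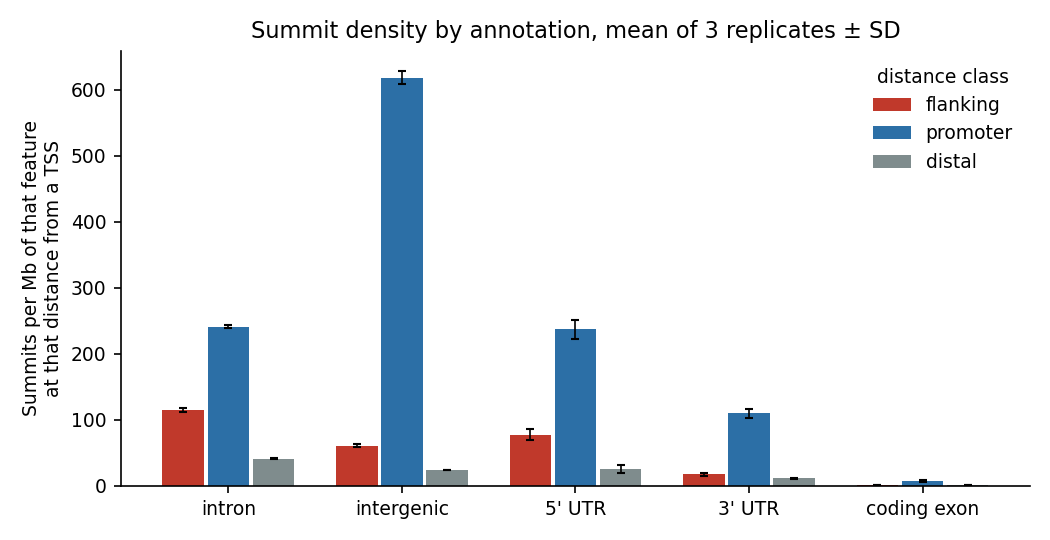
Mean number of summits per Mb of each annotated feature (vertical axis) in the flanking, promoter and distal distance classes, from the strongest peaks of 3 replicates (bars, with SD). Flanking and distal summits were densest in introns, at 115 and 40.8 per Mb, whereas promoter summits were densest in intergenic sequence, at 618 per Mb.

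Relative to the gene with the nearest TSS, 835 flanking summits (51.1%) lay downstream and inside it. Of these, 769 were intronic. In intron 1 of a transcript from that TSS lay 703 of the 769 (91.4%, exact 95% interval 89.2 to 93.3), with 65 in a later intron. The rule keeps only summits close to that TSS, and the share of intron 1 in the zone's intron sequence was not measured. A preference for intron 1 over later introns was therefore not tested. A further 310 summits (19.0%) lay upstream of the nearest TSS and yet inside the same gene, between alternative start sites. These had the shortest median distance of the 6 placements, 912 bp, the lowest median GC content, 32.7%, and the highest median signal, 237. A start site on either side keeps the distance short by the placement itself. Summits downstream inside the nearest gene had a median GC content of 33.7% and a median signal of 229. The spread of these medians between replicates was not measured. Upstream intergenic sequence held 319 summits (19.5%, median signal 216), and 94 summits (5.75%) lay upstream inside another gene, as at cbt. Past the end of the nearest gene lay 26 summits inside another gene and 50 between genes.

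Flanking peaks were intermediate in strength. Their signal had a median of 226 with quartiles of 161 and 409 and ran from 124 to 9422, against medians of 272 for promoter and 204 for distal peaks. A signal of 1000 or more was reached by 79 flanking peaks. The median percentile of signal within a list was 47.3 ± 0.319 for flanking, 57.3 ± 0.986 for promoter and 40.8 ± 0.640 for distal peaks in the replicates (SD, n = 3). Flanking minus promoter percentiles differed by -10.5, -8.56 and -11.0 points in replicates 1, 2 and 3, and flanking minus distal percentiles by 6.40, 6.20 and 6.93 points. Both differences were larger than their spread between replicates, and the groups did not overlap. Among the 4170 strongest optimal peaks the differences were -2.78 (flanking minus promoter) and 12.4 points (flanking minus distal), against -10.2 and 6.29 in the full list. Percentiles were ranked anew within the 4170 peaks, so these points are not on the scale of the full list.

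Reproducibility followed the same order. Of the flanking peaks, 1137 (69.6%, exact 95% interval 67.3 to 71.8) had a counterpart within 100 bp among the 8340 strongest peaks of each replicate, against 73.5% of promoter peaks, 65.9% of distal peaks and 70.4% of all optimal peaks. The flanking share was therefore close to that of the whole list. Flanking minus promoter peaks differed by 0.647 points among the 4170 strongest optimal peaks, against -3.89 points in the full list. The difference was -2.57 points without replicate 1 and -2.32 points without replicate 2. These count other peaks or lists than the value of -3.89 points, so they are not on its scale. Each replicate's own strongest flanking peaks were found among those of both other replicates in 68.1% ± 1.66 of cases, promoter peaks in 73.3% ± 1.08 and distal peaks in 65.1% ± 1.07 (SD, n = 3). Replicates 1, 2 and 3 held 1432, 1433 and 1382 of the 1634 flanking peaks among their strongest, and 97.2%, 97.1% and 96.5% of them anywhere in their full lists. The optimal list was made from these replicates, so this is not an independent check.

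**Figure D3:**
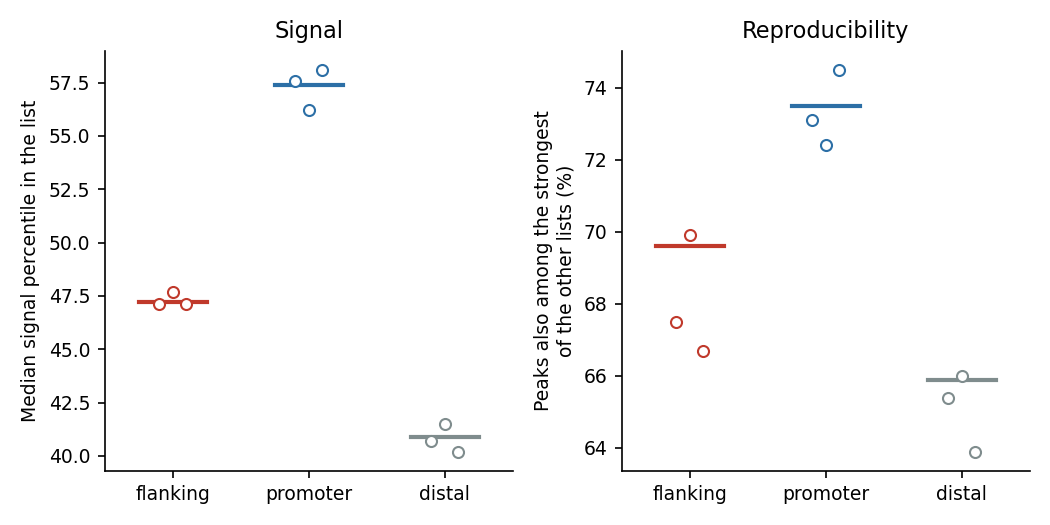
Median signal percentile (left, 0 to 100 within a list) and share of peaks also among the strongest of the other lists (right, %) for flanking, promoter and distal peaks, with circles for the 3 replicates and bars for the optimal list, on axes that do not start at 0. Flanking peaks lie between the others in both panels, at percentile 47.2 and 69.6% in the optimal list.

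Since a replicate's strongest peaks are a selection by signal, the share found in all of them was bound to be low near the end of the list, and it is given as a description. When the flanking peaks were cut into 5 groups of equal size by signal, 98.5% of the strongest group, 94.5% of the next, 87.5% and 57.8% of the following ones and 9.51% of the weakest were in the strongest peaks of all 3 replicates. The weakest group had signals of 124 to 151 and stood next to the end of the list. The upstream share hardly moved over these groups, at 40.7% to 45.6%, while the intronic share was 76.8% in the strongest and 68.7% in the weakest.

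GC content was lower at flanking summits than beside them, as at the other summits. Within 50 bp of the summit it averaged 34.5%, against 42.3% in windows centred 500 bp away, and it was lower at the summit in 1237 of 1634 cases (75.7%). In the replicates the difference was -6.68, -8.05 and -7.23 points, all larger than the SD of 0.686 between them. The same difference averaged -7.32 ± 0.686 points at flanking, -8.69 ± 0.539 at promoter and -8.22 ± 0.609 points at distal summits in the replicates (SD, n = 3), so the dip was not deeper at flanking summits. In profiles of 25 bp windows the minimum was 33.9% at the summit itself. Among flanking summits GC content ran from 11.9% to 67.3%, with a median of 33.7%. Coding exons made up 33.1% of the flanking zone, with 53.3% GC, but held 0.796% of its summits. Windows 500 bp away can take in such exons, and their make-up by feature was not measured. The same windows serve for the A and T runs, 8-mers and motifs below.

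**Figure D4:**
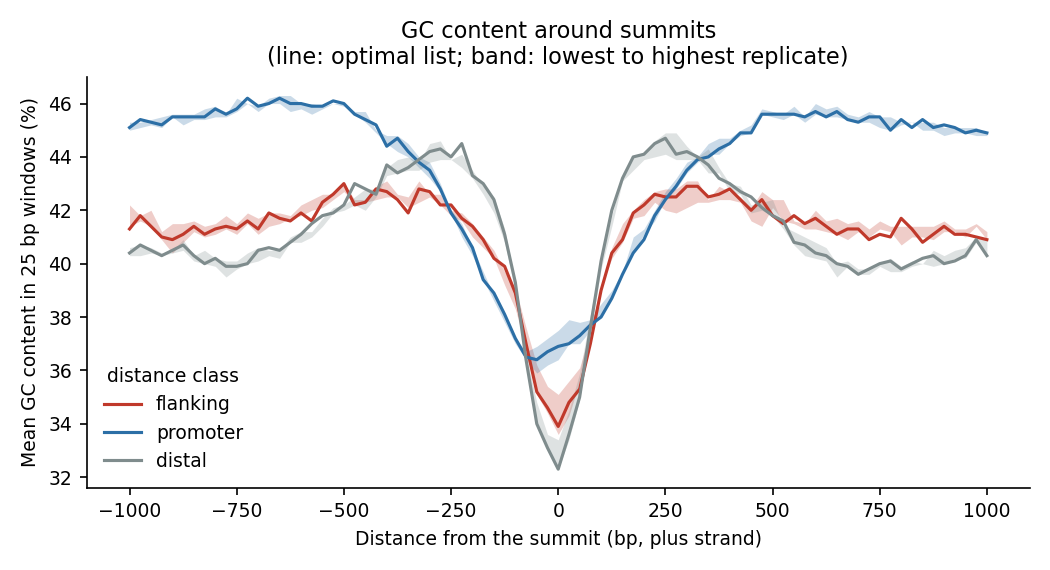
Mean GC content in 25 bp windows (vertical axis, %) by distance from the summit on the plus strand (horizontal axis, bp) for flanking, promoter and distal summits, with lines for the optimal list and bands from the lowest to the highest replicate. Flanking summits reach a minimum of 33.9% at the summit, between the 36.4% of promoter and the 32.3% of distal summits, and return to about 41% at 1000 bp.

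In introns and between genes, flanking summits also had lower GC content than the zone's sequence of the same feature. Intronic flanking summits averaged 34.0% GC, and intron sequence of the zone 38.5%. Intergenic flanking summits averaged 35.0%, and the zone's intergenic sequence 39.7%. In 3' untranslated regions, already AT-rich, summits had 35.0% and the zone 35.4%. The GC content of flanking minus promoter summits was -2.09 ± 0.509 points and that of flanking minus distal summits 1.20 ± 0.167 points in the replicates (SD, n = 3). Stronger peaks had lower GC content in every class. At flanking summits it was 32.8% in the strongest of the 5 signal groups and 36.4% in the weakest, and the strongest minus the weakest group differed by -4.18, -3.52 and -3.28 points in replicates 1, 2 and 3. The same difference averaged -6.34 ± 0.556 points at promoter and -2.33 ± 0.265 points at distal summits in the replicates (SD, n = 3). With 100 bp on each side of the summit flanking minus promoter GC content was -1.16 points, and with 1 TSS per gene -1.25 points, against -2.34 in the optimal list as defined here.

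Long runs of A and T were more frequent at summits of every class than beside them. A run of at least 12 such bases was present within 50 bp of 29.4% of flanking summits (replicates 29.1% ± 1.72) and of 16.9% of windows 500 bp away (16.6% ± 0.372, SD, n = 3 each). The shares were 29.4% and 12.7% for promoter summits and 31.7% and 17.0% for distal summits. All of the 12 leading 8-mers at flanking summits, ranked by their excess over windows 500 bp away, consisted of A and T only, as at distal summits. The first was AAATAATT, present with its reverse complement at 88 flanking summits (5.39%, against 2.20% of windows 500 bp away). At promoter summits 8 of the 12 leading 8-mers were of A and T only, and the first was TATCGATA.

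That 8-mer is the DNA replication-related element (DRE), the site of DREF at many housekeeping promoters, and it was rarer at flanking than at promoter summits. TATCGATA was present within 50 bp of 6 flanking summits (0.367%), as often as in windows 500 bp away (0.337%), and of 231 promoter summits (5.61%). In the replicates it was present at 0.363% ± 0.118 of flanking and 5.24% ± 0.511 of promoter summits (SD, n = 3). All motifs were searched as exact letters on both strands, and CGATA, the core read by the insulator protein BEAF-32, lies within the DRE, so these counts overlap. CGATA was present at 11.6% ± 0.405 of flanking summits and 26.8% ± 0.645 of promoter summits in the replicates (SD, n = 3), and at 12.2% ± 0.195 of windows 500 bp from flanking summits. GGTCACACT, the core promoter motif of M1BP, was present at 2 flanking summits (0.122%) and 84 promoter summits (2.04%). At flanking summits these 3 motifs were thus about as frequent as in windows 500 bp away.

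Of 30 known motifs, 11 were more frequent at flanking summits than in windows 500 bp away, and in the replicates 10, 10 and 11. Those with the largest gains were AT-rich. TATAAA, the TATA box consensus, was present at 20.3% of flanking summits and 11.2% of windows 500 bp away. The forkhead consensus TAAACA stood at 14.6% against 10.3%, the homeobox consensus TAATTA at 9.55% against 6.15%, and TATTTTTA, a Mef2-like consensus, at 4.35% against 3.03%. Each of these gains was also present at promoter and distal summits. TATAAA was present at 17.9% of promoter and 22.7% of distal summits, against 8.64% and 11.8% of windows 500 bp from them. Motifs rich in G and C were rarer at the summit, with GCTGCC at 2.51% against 7.44% and GGGCGG at 1.65% against 5.05%. GAGAGAG, the letters bound by the GAGA factor, stood at 1.41% against 3.79%. The GATA consensus GATAAG (5.39% against 5.69%) and the Suppressor of Hairless consensus TGGGAA (5.32% against 5.60%) were about as frequent as in windows 500 bp away. GC content moved with these shares, and its part in them was not tested. A match is a string of letters, not a bound site.

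The 1634 flanking summits were nearest to 1215 of 13968 protein coding genes (8.70%), and to 1237, 1192 and 1243 genes in replicates 1, 2 and 3. The 4170 strongest optimal peaks gave 632 genes. Of the 1215 genes, 920 had 1 flanking summit, 218 had 2 and 77 had 3 or more. These genes were long, with a median of 8210 bp and 2 TSSs, against 2019 bp and 1 TSS for the 12753 other genes. Among the 1215, 659 (54.2%) also had a promoter summit, against 34.0% of all protein coding genes and 32.1% of the others. The flanking summit had the higher signal in 297 of the 659 genes (45.1%), and 556 genes had a flanking but no promoter summit. Counted by summit, the nearest gene of 972 of the 1634 flanking summits (59.5%) had a promoter summit, and this share was 38.7% with a promoter window of 200 bp. Gene length and number of TSSs moved with the share that had a promoter summit, and their part in it was not tested.

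Most flanking summits had no other summit close by. Another optimal summit lay within 1000 bp of 594 of them (36.4%). In the replicates that share was 37.7% ± 0.969 for flanking, 31.8% ± 1.34 for promoter and 23.0% ± 0.619 for distal summits (SD, n = 3). Within 500 bp the shares were 17.8% ± 0.862, 21.2% ± 1.21 and 10.9% ± 0.604, so the order of flanking and promoter summits depended on the distance used. In shorter lists neighbours were fewer, with a summit within 500 bp of 8.80% of flanking summits when only peaks found in every replicate were kept, of 10.1% to 10.9% with 1 replicate left out, and of 16.8% in the full optimal list.

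The gene with the most flanking summits was Tlk, which encodes a tousled-like kinase of chromatin assembly (FBgn0283657, chrX:3720007-3789770). It had 9 in the optimal list and 8, 10 and 9 in replicates 1, 2 and 3, spread over 8 TSSs, with signals of 128 to 1548. CG42258 (chrX:12463528-12478431) had 7 within only 14904 bp, and shn, which encodes a zinc finger transcription factor of BMP signalling, had 7 as well. The Rel family transcription factor gene NFAT (chrX:13624745-13664568) had 6, all found in the strongest peaks of every replicate, and no promoter summit. The forkhead family gene CHES-1-like had 6, with signals of 132 to 1283. The remodelling factor gene tou and CG32264 had 5 each. So did loco, which encodes a regulator of G protein signalling in glia, with no signal above 414. CG9837 had 4 within 5901 bp and no promoter summit, and HmgZ, which encodes an HMG box chromatin protein, had 4. Replicate counts of these 10 genes differed from the optimal count by at most 2.

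The 20 strongest flanking peaks found in every replicate held signals of 1947 to 9422, and none ranked lower than 129 in any replicate. Of these, 19 lay in introns and 1 between genes, 11 lay upstream and 9 downstream of the nearest TSS, and GC content averaged 31.8%. Among the genes were some for transcription or chromatin proteins. Besides cbt, Trl and HmgZ (signal 3157, 524 bp upstream), these were Adf1, which encodes a MADF domain transcription factor (signal 3572, 823 bp downstream, ranks 27, 45 and 24), and NFAT (signal 2046, 1668 bp upstream). The peak at chif, which encodes a partner of the replication kinase Cdc7, had a signal of 2826 and ranks of 59, 48 and 68.

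Further genes were those of signalling, adhesion and lipid enzymes. The peak in an intron of norpA, which encodes the phospholipase C of phototransduction, had a signal of 3250 and lay 1374 bp downstream (ranks 36, 46 and 35). That of for, which encodes a cGMP-dependent protein kinase, had 2253 (ranks 102, 82 and 84), and that of MYPT-75D, a myosin phosphatase targeting subunit gene, 2364 (ranks 81, 77 and 77). The 1 intergenic peak lay at chr3R:8355492-8355982, 1249 bp upstream of stck, which encodes the integrin adhesion protein PINCH, with a signal of 2273 (ranks 76, 76 and 107). The peak at LPCAT, a lysophospholipid acyltransferase gene, had 2389, and that of egh, a glycosphingolipid mannosyltransferase gene, had 1947 and the highest GC content of the 20, 49.5%. The genes of 4 of the 20 peaks had no promoter summit, namely CG9837, CG3726, NFAT and CG4496.

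Gene groups differed widely in how many members had a flanking summit. Of 38 lists, 25 lay above the 8.70% of all protein coding genes. Several of the 25 had exact 95% intervals that took in this share, among them the Hedgehog list (1 of 11) and the Hox list (1 of 10). Ecdysone receptor and response genes, which time moulting and metamorphosis, had one in 7 of 14 cases (exact 95% interval of the share 23.0% to 77.0%, replicates 45.2% ± 4.12, SD, n = 3). The nuclear receptor genes outside this list had one in 1 of 12 cases (8.33%), Hnf4 (291), with ERR and Hr51 at none, which is near the share of all genes. Among the ecdysone genes, Hr38 had a signal of 504, 677 bp upstream, and Hr4 503, 1808 bp downstream in an intron. Both encode nuclear receptors. Eip63E (404) and the nuclear receptor gene Eip75B (182) had 2 flanking summits each, and Eip74EF and Eip93F had none. GATA factors and ush had one in 3 of 6 cases (11.8% to 88.2%), namely GATAd (356), ush (322) and srp (192), which encodes the GATA factor of blood and fat body. This list, with the cofactor gene ush in it, was written with earlier results of these data known. The cbt peak in an intron of ush is counted for cbt.

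Signalling pathways followed. In the JNK pathway 5 of 11 genes had a flanking summit (45.5%, exact 95% interval 16.7 to 76.6), led by kay, the Fos subunit of AP-1, with 4 summits of up to 832 in signal. The kinase gene msn (627) and the phosphatase gene puc, a feedback inhibitor (166), had 1 each, and Jra, the Jun subunit, had none. Of the BMP and activin genes 6 of 15 did (40.0%, 16.3 to 67.7), among them the Smad genes Smox (744) and Mad (388), the repressor gene brk (628) and shn (660), with Med and babo at none. In the insulin and TOR list 7 of 22 did (31.8%, 13.9 to 54.9). Besides Lk6 these included the receptor gene InR (673, 621 bp upstream), the kinase gene Pi3K92E (569) and Thor, which encodes the eIF4E-binding protein (538). In the Notch list 5 of 16 did (31.2%, 11.0 to 58.7), led by the ubiquitin ligase gene neur (818).

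In the other pathways, the members named with a signal are those with the highest flanking peaks of their list. Members without a flanking summit included Egfr, Mer, Apc, Axn, Su(fu) and Su(var)2-10. The EGFR and Ras list had 4 of 18 (22.2%), with sty, which encodes the inhibitor Sprouty (1003), the kinase gene Raf (953), and the repressor genes aop (784, with 4 summits) and cic (777). The Hippo list had 4 of 13 (30.8%; replicates 46.2% ± 13.3, SD, n = 3), led by the apoptosis inhibitor gene Diap1 (1080), with ex (463), ft (312) and sd (188), and its replicates spread the most of these lists. JAK/STAT had 3 of 9 (33.3%), the factor gene Stat92E (528), the inhibitor gene Socs36E (369) and the ligand gene upd3 (174). The Wnt list had 5 of 19 (26.3%), led by Wnt5 (479) and the kinase gene sgg (372), and the Toll and Imd list 4 of 15 (26.7%), led by the NF-kappaB genes dl (473) and Dif (455). The Hedgehog list had 1 of 11, its receptor gene ptc (430). The exact 95% intervals of the EGFR and Ras, JAK/STAT, Toll and Imd and Hedgehog lists took in the 8.70% of all genes.

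Lists of chromatin and developmental factors lay in the same range. Trithorax and Brahma complex genes had a flanking summit in 6 of 17 cases (35.3%, exact 95% interval 14.2 to 61.7), among them kis (402), tna (346) and osa (285), and Polycomb group genes in 4 of 17 (23.5%), led by ph-p (677) and ph-d (603), neighbouring copies of 1 gene between which reads can be hard to place. Of the forkhead genes 5 of 17 had one, led by CHES-1-like (1283) and jumu (936), and of muscle and heart regulators 5 of 17, led by Mef2 (471) and lmd (462). Of the 10 genes in the list of cap-dependent translation and Lk6, 4 did. These were Lk6 (4981), larp (811, with 3 summits), Thor (538) and pAbp (267). Lk6 and Thor were also counted in the insulin and TOR list, and Lk6 was listed with earlier results of these data known. Hox genes and their cofactors had 1 of 10, Abd-B (322), and their interval and that of the Polycomb group took in the 8.70% of all genes.

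Metabolic, trafficking and stress lists lay nearer to the share of all genes. Of the Rab GTPase genes, which direct vesicle traffic, 6 of 36 had one (16.7%, exact 95% interval 6.37 to 32.8), led by Rab11 (869) and Rab14 (706). Glycolysis had 2 of 13, the hexokinase gene Hex-A (718) and Ldh (241). Autophagy had 2 of 19, the kinase gene Atg1 (599) and the cargo receptor gene ref(2)P (133). Heat shock genes had 1 of 14, the Hsp90 gene Hsp83 (541), and the circadian clock 2 of 13, Pdp1 (310) and the kinase gene dco (300). Among lists of tissue function, sarcomere genes had 2 of 15, led by the tropomyosin gene Tm1 (291), and chitin and tanning genes had 1 of 13, the dopa decarboxylase gene Ddc (279). Cytochrome P450 genes had 4 of 85 (4.71%). Each of these lists had an interval that took in the 8.70% of all genes.

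Ribosomal protein and proteasome genes had many promoter and few flanking summits. Cytoplasmic ribosomal protein genes had a flanking summit in 1 of 93 cases (1.08%, exact 95% interval 0.0272 to 5.85), RpS23 (411), and a promoter summit in 70 of 93 (75.3%, against 34.0% of all genes). Mitochondrial ribosomal protein genes had 1 of 73 flanking and 50 of 73 promoter summits. Of 48 proteasome genes none had a flanking summit, which allows a share of up to 6.25% by a count of 3 and of up to 7.40% by the exact 95% interval, and 24 had a promoter summit. Among insulator and architectural protein genes, Trl alone of 18 had a flanking summit, and 12 had a promoter summit. Complex I genes of the respiratory chain had 2 of 40 flanking (5.00%) and vacuolar ATPase genes 1 of 32 (3.12%). Receptor and cuticle genes had few summits of both kinds. Odorant, gustatory and ionotropic receptor genes had 3 of 179 (1.68%) of either kind, and cuticle protein genes had 4 of 93 flanking (4.30%) and 1 of 93 promoter summits. The exact 95% intervals of the flanking shares of insulator, complex I, vacuolar ATPase and cuticle genes took in the 8.70% of all genes.

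**Figure D5:**
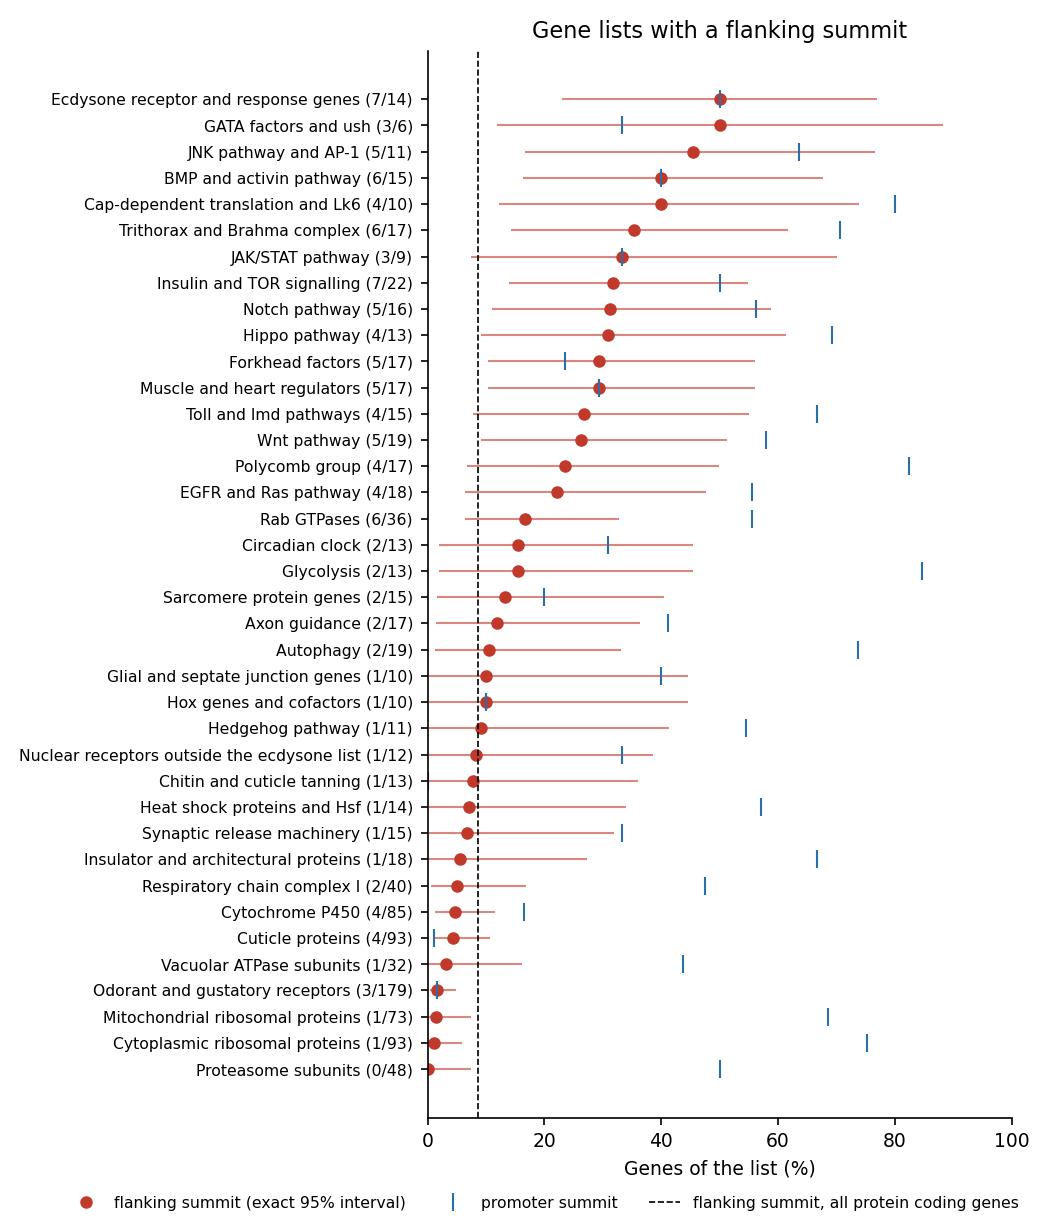
Share of each of 38 gene lists (vertical axis, with counts) whose members have a flanking summit (red points with exact 95% intervals) or a promoter summit (blue ticks), in % of the list's genes (horizontal axis). The dashed line marks the 8.70% of all protein coding genes with a flanking summit, with ecdysone genes (7 of 14) at the top and proteasome genes (0 of 48) at the bottom.

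Lists with the lowest shares held short genes, but a longer median length did not always go with a higher share. The median length was 55678 bp for the ecdysone list, 16826 bp for GATA factors, 9021 bp for the JNK pathway and 6674 bp for BMP and activin genes, against 1318 bp for cytoplasmic ribosomal protein genes, 1381 bp for proteasome genes and 909 bp for mitochondrial ribosomal protein genes. The axon guidance genes, with a median of 35132 bp, had a flanking summit in 2 of 17 cases (11.8%), and synaptic release genes, with 27653 bp, in 1 of 15 (6.67%). The part of length in these shares was not tested.

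RNA genes played a small part. The start of an annotated RNA gene lay within 500 bp of 64 flanking summits (3.92%), in the replicates 4.25% ± 0.0768 of flanking, 4.15% ± 0.107 of promoter and 4.09% ± 0.276 of distal summits (SD, n = 3). Of the 64 genes 56 were classed as ncRNA, 3 as tRNA, 3 as snoRNA and 2 as snRNA. The strongest were asRNA:CR45908 (signal 1202), the microRNA gene mir-275 (1124, 434 bp upstream) and lncRNA:CR45668 (1044).

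By chromosome arm, the flanking zone of X was the densest, with 67.6 ± 1.80 summits per Mb in the replicates (SD, n = 3). Arms 2L, 3L and 3R had 57.4 ± 1.83, 56.4 ± 1.81 and 56.4 ± 2.55 per Mb, which did not differ beyond their spread, and 2R had 51.3 ± 1.28. Chromosome 4, with 5 flanking summits in all, had 21.8 ± 4.35 per Mb. As a share of all optimal summits on the arm, flanking summits made up 20.7% on X. That share was 19.8% on 2L, 18.4% on 2R, 19.4% on 3L, 19.7% on 3R and 13.2% on chromosome 4. The density of flanking summits on X was thus not matched by a much higher share there.

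Below the optimal list, flanking peaks were less often intronic and less AT-rich. The pooled list holds 30000 peaks by signal, labelled as peaks and background, and its first 8340 are the optimal list. The flanking share was 19.6% in ranks 1 to 8340, 22.0% in ranks 8341 to 15000, 25.5% in ranks 15001 to 22500 and 26.0% in ranks 22501 to 30000. Over the same ranks the intronic share of flanking peaks was 71.9%, 64.8%, 61.2% and 51.6%, the coding exon share 0.796%, 1.98%, 8.46% and 18.5%, and mean GC content 34.5%, 37.5%, 40.8% and 42.2%. The lowest ranks thus came closer to the composition of the flanking zone as a whole, of which 33.1% is coding exon and whose GC content is 43.5%.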

How the data were processed

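Whole embryos of 1 transgenic line were profiled in 3 biological replicates. The authors deposited narrowPeak lists for dm6, 1 per replicate, 1 from pooled replicates and the optimal list selected by irreproducible discovery rate. In the deposited lists each peak has a signal value, which is not scaled between lists, a −log10 q value, not used here, and a summit offset. Aligner, peak caller and software versions: not given in the sources used here. Lists for dm3 were not used. Replicates 1, 2 and 3 hold 30000, 30000 and 27353 peaks.

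Summits were assigned to the nearest of 19630 pairs of TSS and gene (13968 protein coding genes, Ensembl release 115 annotation of dm6), with sequence from assembly release 6. A summit in several features took the first of coding exon, 5' untranslated region, 3' untranslated region, intron and intergenic. Peaks were matched when their summits lay within 100 bp. Sequence windows reached 50 bp to each side of a summit, and comparison windows of the same length were centred 500 bp to each side of it. The 38 gene lists came from textbook knowledge or symbol patterns, which can take in paralogs, and 17 symbols found no match. A gene had a promoter summit when one lay within 500 bp of any TSS it has.

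The rule for named genes takes the genes of the 20 strongest flanking peaks found in every replicate, the 10 genes with most flanking summits, and up to 4 members with and 2 without a flanking summit per list. Members, lists and alternatives were chosen with earlier results of these data known. Regions are not replicates, so classes were compared by the exact sign-flip permutation test over 3 replicates. Intervals are exact Clopper-Pearson intervals at 95% and cover counting error only. For a share of 0, the upper limit is that of a count of 3. The scripts were tested on simulated data and ran in Python 3.11.15 with numpy 2.4.6, pandas 2.3.3, scipy 1.17.1 and matplotlib 3.10.9. Alternatives varied the distance limits, the TSSs, the peaks kept, the windows and the replicates.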

Additional observations from a re-analysis of the deposited data

How the results depend on the processing

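Of 95 results under alternative settings, 45 stayed within the spread between replicates or within 1.5 times the main count, 49 moved and 1 reversed. In the 4170 strongest optimal peaks the share in all replicates' strongest peaks, flanking minus promoter, was 0.647 points, against -3.89 in the full list, and it was -7.07 points with summits within 50 bp and -9.84 with the top 5000 peaks of each replicate. The 4170 strongest peaks also gave a flanking share of 18.5%, 43.4% upstream, 74.5% intronic, 43.7% with a promoter summit at the nearest gene (59.5% in the full list), 11.9% with a neighbour within 500 bp, 632 genes, and percentile differences of -2.78 (flanking minus promoter) and 12.4 (flanking minus distal). With 1 TSS per gene these were 17.7% flanking, 32.3% upstream, 64.5% intronic, 46.9% with a promoter summit, 18.1% with a neighbour and 4.96 points (minus distal), and the GC difference from promoter summits was -1.25 points. With TSSs of RNA genes included, the values were 21.1% flanking, 69.6% intronic and 54.6% with a promoter summit. A lower limit of 750 bp gave 14.4% flanking, 39.6% upstream, 60.7% with a promoter summit, 15.1% with a neighbour and 5.37 points (minus distal). An upper limit of 1500 bp gave 15.1% flanking, 18.2% with a neighbour and 5.17 points. Peaks found in every replicate gave 45.1% upstream, 47.6% with a promoter summit, 8.80% with a neighbour and differences of -7.60 and 10.3 points. A promoter window of 200 bp gave 38.7% with a promoter summit, 100 bp on each side a GC difference of -1.16 points, and neighbours within 1000 bp a share of 36.4%. Settings that keep fewer peaks leave fewer promoter summits and neighbours by construction. Their percentiles were ranked anew within the peaks kept, so those points are not on the scale of the full list. For the other moves the cause was not tested.

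Leaving out 1 replicate in turn kept optimal peaks matched in the top lists of both others, 6318 to 6611 in number. The flanking share was then 19.3% to 19.6%, the upstream share 44.2% to 45.6%, the intronic share 72.0% to 73.2% and the share with a promoter summit at the nearest gene 51.2% to 52.4%. Neighbours within 500 bp stood at 10.1% to 10.9%. Percentile differences, ranked within the peaks kept, were -9.37 to -7.70 points (flanking minus promoter) and 7.99 to 9.33 points (flanking minus distal). The difference for reproducibility was -3.69 to -2.32 points (-3.89 in the full list), that for GC content -2.38 to -2.23 points (-2.34) and the gene count 985 to 1006 (1215). The reproducibility values count other peaks or lists than that of the full list, so they are not on its scale. No paired analysis was possible because there is 1 group, so replicate numbers pair no samples between groups. Differences between classes were taken within each replicate. Depth is unknown, so how far it limits the weakest peaks could not be measured.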
